A study of Mus musculus with 35 samples.

Results

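Mouse colon tumour organoids that had received palmitic acid in a first batch (3 libraries) are called treated below. They were compared with the organoids deposited as their controls (3 libraries), over every gene of the table. These 6 libraries are part of a series of 35 bulk RNA libraries, in which a second palmitic acid batch has 2 libraries and a separate experiment with carmofur, a ceramidase inhibitor, has 12 controls and 15 carmofur libraries. All 6 libraries carry the genotype label AKP, which the labels do not spell out, and are labelled as tumour cells of the colon cultured as organoids. The labels give the treatment as palmitic acid or as control, with no dose, time or vehicle. They name neither separate cultures for the replicates of a group nor the number of lines or clones, so the p-values measure only the spread between these libraries. The 3 controls are labelled with no batch, so a difference between batches and an effect of the treatment cannot be told apart in the comparison with control. Of 54354 genes in the table, 9845 had enough counts to be tested.

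Palmitic acid is the main saturated fatty acid of animal fat. Cells take it up with the help of transporters and fatty acid binding proteins, activate it to palmitoyl-CoA, and burn it in mitochondria, store it as triglyceride, elongate and desaturate it, or join it to serine in the first step of ceramide synthesis. Ceramides are the core of the sphingolipids and are broken down by ceramidases. In many cell types an excess of saturated fatty acid is known to load the endoplasmic reticulum and its chaperones, and in the intestine fatty acids are known to act on stem cells through the PPAR receptors. The series was designed to ask how a fatty acid and the level of ceramide alter the RNA of these organoids.

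The libraries held 762888 (control 1), 2511723 (control 2) and 2240767 (control 3) counts in the control group, and 2359895, 2845017 and 2138905 in treated libraries 1, 2 and 3. Levels are given as CPM, which are counts scaled to a common library size with a correction for composition. They are comparable between libraries for 1 gene, not between genes, since gene length is not taken into account. A count of 3 corresponds to 3.87 CPM in control 1, the shallowest library, and to between 1.06 and 1.44 CPM in the other 5, so a gene listed at 0 in control 1 may have been present below that level. Mitochondrial transcripts took 5.45% to 6.04% of the counts in the 6 libraries and ribosomal protein genes took 17.0% to 19.4%. The summed level of 13 epithelial and intestinal identity genes was 3818 to 4148 CPM in the controls and 3247 to 3366 CPM in the treated libraries, and those ranges do not overlap; its part in the results below was not tested. Lgals4, a lectin of the intestinal epithelium and a member of that list, was present at 2408, 2556 and 2729.5 CPM in the controls and 2153, 2029 and 1920.5 CPM in the treated libraries, a log2 fold change of -0.33 ± 0.11, adjusted p 0.214. Markers of mesenchymal cells were near 0 (11 of 13 at 0 in all 8 palmitic acid and control libraries), as were those of glia and neurons (5 of 8 at 0) and endothelial and blood cells (9 of 11 at 0). The summed level of 21 immune markers, 13 of them at 0, was 108 to 144 CPM in the controls and 78.9 to 144 CPM in the treated libraries. Slc26a3, which marks mature colonocytes of normal colon, and Olfm4, listed here with the crypt-base stem cell genes, were at 0 in all 8 of these libraries.

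In all, 55 of the 9845 genes tested (0.559%) differed between treated and control organoids at an adjusted p under 0.05, of which 31 were higher (0.315%) and 24 lower (0.244%) in the treated group. The changes were small in number and mostly moderate in size: 24 of the 55 differed by a log2 fold change of at least 1, and the median was 0.96 over the genes that rose and -0.93 over those that fell, beside 0.01 over all genes tested. In 54 of the 55 genes every treated library lay outside the range of the controls, whereas 6.92% of all genes tested had every treated library above every control and 6.12% had every treated library below. Among the 55 are 48 genes with an established name, 27 higher and 21 lower, and 7 predicted genes, pseudogenes or unnamed loci. Genes with high counts had the better precision: the median standard error of the log2 fold change was 0.16 over the 1433 genes that averaged 100 CPM or more and 0.54 over all genes, and 36 of the 55 averaged at least that much. Changes are given as log2 fold changes of treated over control organoids, with the standard error after ±. For genes that were not called, the range over the controls is given first and that over the treated libraries second. For the gene lists described below as holding no called member by edgeR, DESeq2 and limma-voom called none either. The number of members of those lists at an unadjusted p under 0.05 is given in brackets. Such a p was found for 761 of all 9845 genes tested.

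**Figure D1:**
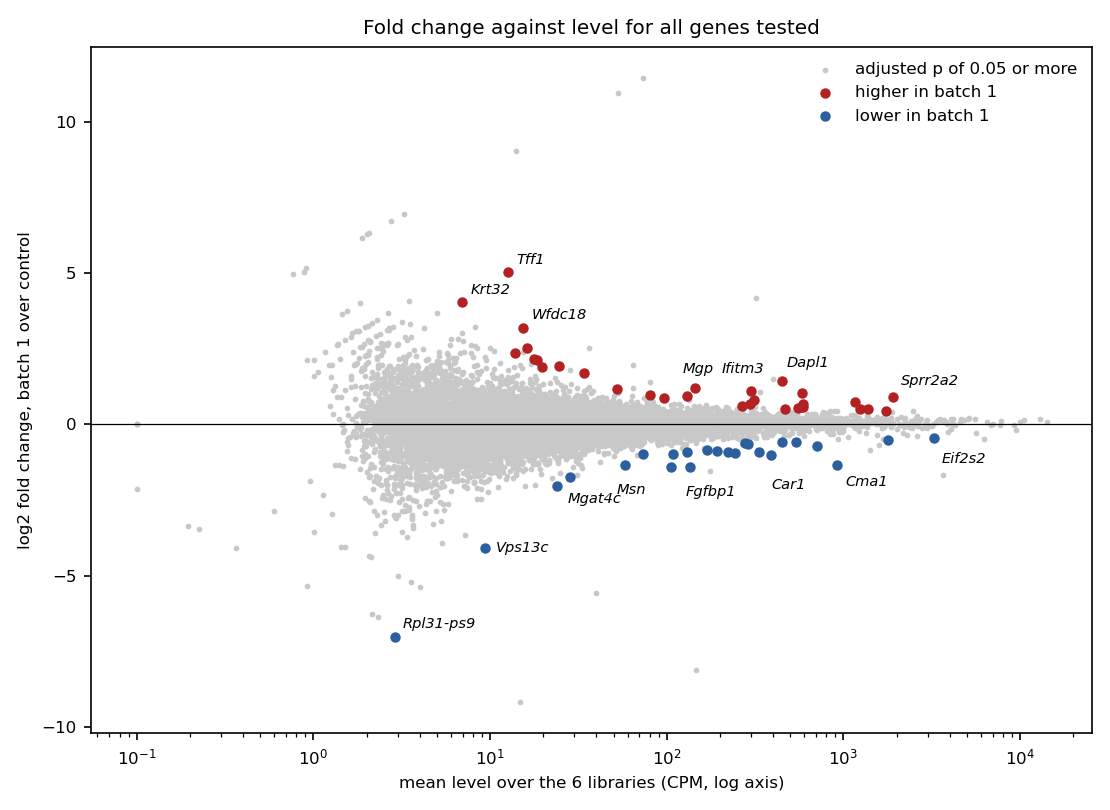
Log2 fold change of treated over control organoids against the mean level over the 6 libraries in CPM (log axis) for the 9845 genes tested, with a mean of 0 drawn at 0.1. Red and blue points are the 31 genes higher and the 24 lower at an adjusted p under 0.05. At low levels the grey cloud is wide and calls are few; above 100 CPM changes of less than 1 log2 unit were called.

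Dapl1, Mgp and Ifitm3 were among the genes with the lowest adjusted p, and each rose by more than 1 log2 unit. Dapl1 (chromosome 2, 59484653 to 59505020, plus strand), a small protein known from differentiating stratified epithelia, was present at 271, 249 and 217 CPM in the controls and 541, 809 and 609.5 CPM in the treated libraries. The treated values lay well above the control values, with a log2 fold change of 1.42 ± 0.14, adjusted p 7.79e-12. Mgp (chromosome 6, 136872435 to 136875823, minus strand), which encodes the secreted calcification inhibitor matrix Gla protein, was found at 76.1, 94.4 and 89.5 CPM in the controls and 212, 185 and 209 CPM in the treated libraries, a rise of 1.21 ± 0.18, adjusted p 5.96e-06. Ifitm3 (chromosome 7, 141009586 to 141010770, minus strand), an interferon-induced membrane protein that restricts the entry of viruses, stood at 215, 178 and 185 CPM in the controls and 413, 373 and 440.3 CPM in the treated libraries and rose by 1.09 ± 0.15, adjusted p 6.09e-07. Its neighbours in the same cluster on chromosome 7 were also higher in every treated library without passing the test. Ifitm2 was at 732 to 818 and 1029 to 1104 CPM (0.46 ± 0.12, adjusted p 0.0506). Ifitm1 was at 24.5 to 46.3 and 69.7 to 74.1 CPM (1.05 ± 0.30, adjusted p 0.0886). The Ifitm genes resemble each other in sequence, and reads could be split between them by the authors' counting. Of 14 tested interferon-stimulated genes on a separate list, none was called (3 at an unadjusted p under 0.05), 3 were higher and 1 lower in every treated library, and the median was 0.10.

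Among the called genes, the largest rise was that of a secreted protein near the limit of detection in control organoids. Tff1 (chromosome 17, 31161395 to 31165277, minus strand), a trefoil peptide secreted by the surface mucous cells of the stomach, was at 0, 0.392 and 1.35 CPM in the controls and 14.6, 14.2 and 45.7 CPM in the treated libraries. It rose by 5.03 ± 0.83, adjusted p 4.11e-05, with 4 counts in all over the 3 controls, so the size of the rise is uncertain. Of the 11 genes listed for surface and gastric-type mucous cells, Tff1 alone had enough counts to be tested. Wfdc18 (chromosome 11, 83709015 to 83711348, plus strand), a secreted protein with a WAP domain, was at 0, 3.13 and 4.5 CPM in the controls and 20.7, 31.1 and 33.2 CPM in the treated libraries, a rise of 3.19 ± 0.55, adjusted p 9.08e-05. Ptn, the heparin-binding growth factor pleiotrophin, was at 0, 4.31 and 13 CPM in the controls and 34.5, 32.6 and 22.1 CPM in the treated libraries. Its change was 2.16 ± 0.52, adjusted p 0.0235. Cxcl15, an epithelial chemokine that attracts neutrophils, was at 10.3, 11.8 and 3.15 CPM in the controls and 42.7, 14.2 and 35.6 CPM in the treated libraries. The difference was 1.90 ± 0.50, adjusted p 0.0473. It was the 1 called gene among 13 tested NF-kB genes and chemokines, whose median was -0.30. The groups did not overlap for any of these genes, but the treated libraries spread widely for Tff1, where library 3 was far above the other treated libraries. With limma-voom in place of edgeR none of the 4 was called (adjusted p 0.0908 for Tff1, 0.146 for Wfdc18, 0.252 for Ptn and 0.246 for Cxcl15). The Ptn call was lost without control 1 or 2 or treated library 1, 2 or 3 (adjusted p 0.0837 to 0.234). The Cxcl15 call was lost without control 1 or 3 or treated library 1 or 3 (adjusted p 0.0861 to 0.49).

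**Figure D2:**
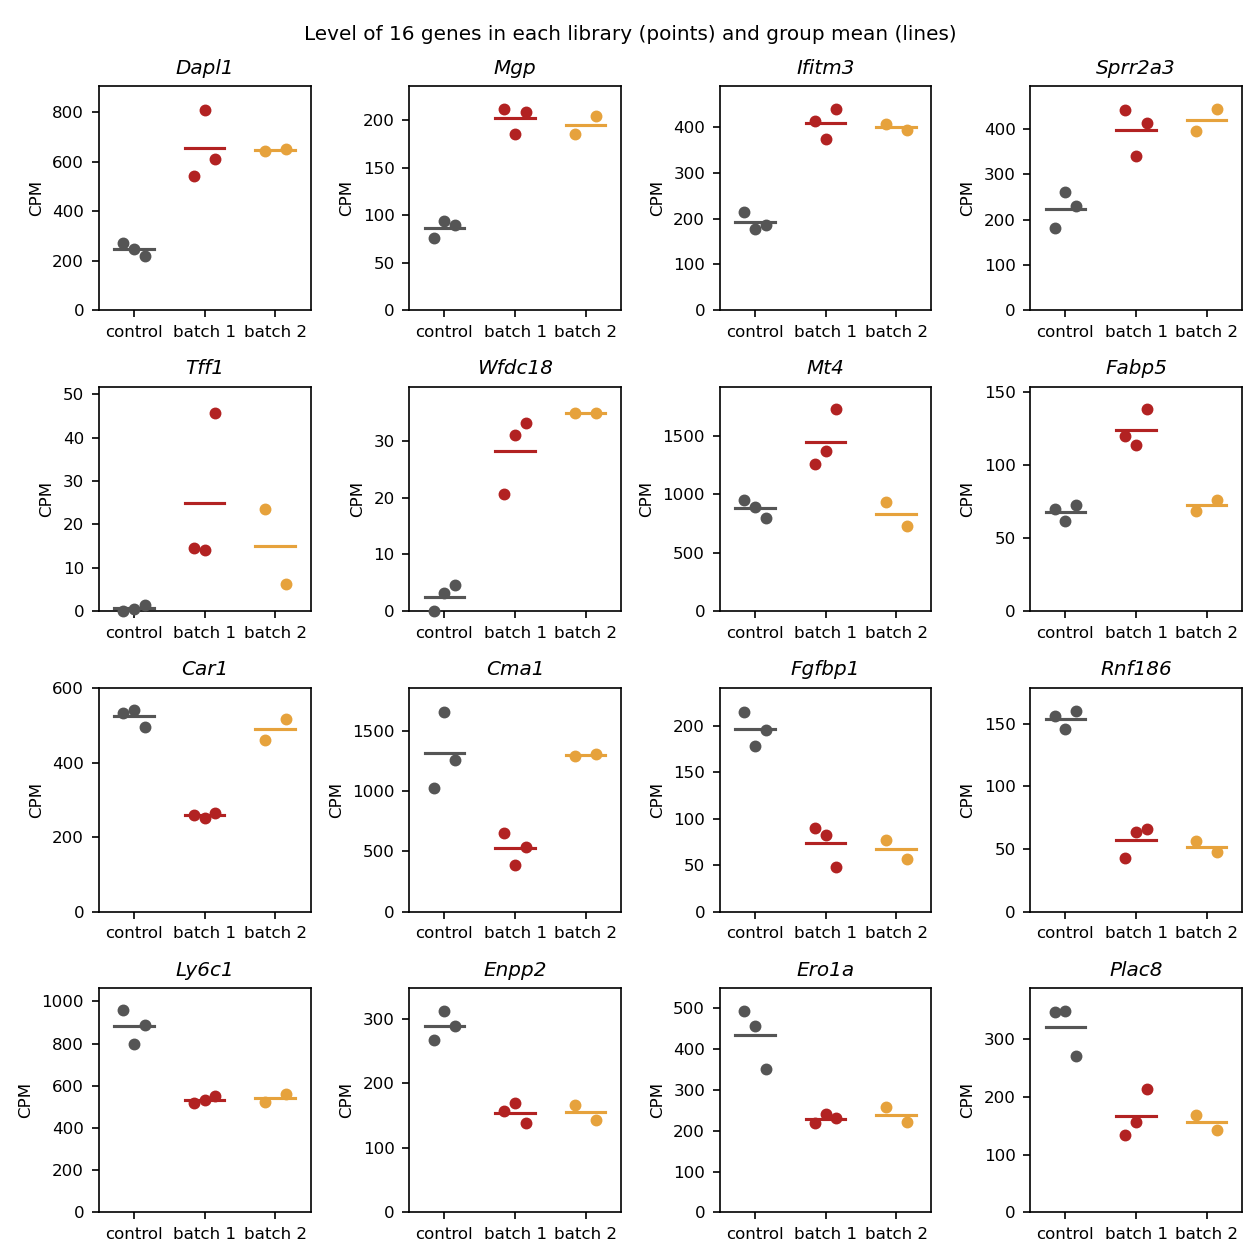
Level in CPM (linear axis from 0, 1 panel per gene) of 16 genes in each control, palmitic acid batch 1 and batch 2 library. Points are libraries and lines are group means. In all 16 panels the 3 batch 1 points lie to 1 side of the 3 control points; for Mt4, Fabp5, Car1 and Cma1 the batch 2 points lie near the controls.

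Keratins are the intermediate filament proteins of epithelia, and some are particular to hair and stratified skin. Of 12 tested squamous and hair keratins, 2 rose and none fell, 5 were higher in every treated library and none was lower in every one, with a median of 0.99. Krt32 and Krt33a, type I keratins of the hair shaft, were the members that passed. Krt32 was at 1.29, 0.783 and 0.45 CPM in the controls and 3.45, 4.6 and 31.2 CPM in the treated libraries. This gave 4.03 ± 1.0, adjusted p 0.0264, with 4 counts in all over the 3 controls, so the size of the rise is uncertain. Its level in treated library 3 was several times that of the other treated libraries. Krt33a was at 1.29, 10.6 and 6.75 CPM in the controls and 42.2, 12.7 and 37.5 CPM in the treated libraries. The log2 fold change was 2.12 ± 0.49, adjusted p 0.0169. The neighbouring and similar Krt33b was at 0 to 7.44 and 12.5 to 23 CPM (2.02 ± 0.61, adjusted p 0.137). The Krt32 call was lost without control 1, 2 or 3 or treated library 3 (adjusted p 0.0689 to 0.877). The Krt33a call was lost without control 1 or 3 or treated library 1 or 3 (adjusted p 0.0734 to 0.262). Krt1 and Krt5, keratins of the suprabasal and basal skin layers, were at 0 in all 8 libraries, as were 6 other members of the list.

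The members of the cornified envelope list that rose were small proline-rich proteins of the Sprr2 cluster on chromosome 3, which crosslink into the envelope of squamous cells and are also made by gut epithelium. The summed level of the list, most of which came from Sprr2a2, was 1579 to 1687 CPM in the controls and 2552 to 3786 CPM in the treated libraries. Sprr2a2 was at 1302, 1359 and 1321 CPM in the controls and 2079.7, 2107 and 3235 CPM in the treated libraries. Its log2 change was 0.90 ± 0.12, adjusted p 2.66e-06. Sprr2a3 was at 180.5, 262 and 230.3 CPM in the controls and 442, 339 and 413 CPM in the treated libraries. The change was 0.82 ± 0.15, adjusted p 3.81e-04. Of 11 tested cornified envelope genes 2 rose, none fell, 4 were higher in every treated library, and the median was 0.12. By contrast 11 of the 35 listed genes, filaggrin (Flg) among them, were at 0 in all 8 libraries. Sprr2b was at 0 to 1.35 and 6.72 to 11.2 CPM and did not pass (3.67 ± 1.02, adjusted p 0.0723). Sprr1a was at 14.9 to 33.3 and 35.8 to 46.6 CPM and did not pass either (0.75 ± 0.35, adjusted p 0.605). The 2 called genes are near copies, so their reads cannot be separated with certainty. The call of Sprr2a2 was lost without control 1 (adjusted p 0.50), while that of Sprr2a3 held whichever library was left out. The likeness extends upstream of the genes. The 250 bases before the RefSeq start of Sprr2a3 (GRCm38.p6, chr3:92285054-92285303, plus strand) are shown because 222 of them, in capitals, occur letter for letter in the 250 bases before the start of Sprr2a2 (chr3:92250397-92250646, plus strand).
Sprr2a3: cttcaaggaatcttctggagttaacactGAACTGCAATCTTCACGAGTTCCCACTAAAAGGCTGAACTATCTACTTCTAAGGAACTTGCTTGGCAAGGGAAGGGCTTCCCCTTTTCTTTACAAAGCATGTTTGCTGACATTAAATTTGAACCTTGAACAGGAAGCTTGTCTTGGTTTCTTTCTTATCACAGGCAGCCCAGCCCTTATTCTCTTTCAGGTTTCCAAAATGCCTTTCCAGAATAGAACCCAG

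Metallothioneins, small cysteine-rich proteins that bind zinc and copper, included 2 genes that rose among the 4 measured. They lie side by side on chromosome 8 between 94137197 and 94180327, and all 4 were higher in every treated library than in every control. Mt4, known mainly from stratified squamous epithelium, was at 955, 889 and 795 CPM in the controls and 1258, 1369 and 1732 CPM in the treated libraries and rose by 0.73 ± 0.13, adjusted p 1.07e-04. Mt2 was at 468, 425 and 496 CPM in the controls and 593, 740.0 and 742 CPM in the treated libraries and rose by 0.58 ± 0.13, adjusted p 0.0116. Mt1 was at 1530.0, 1595 and 1699 CPM in the controls and 2066, 2174 and 2206 CPM in the treated libraries and missed the threshold (0.42 ± 0.11, adjusted p 0.0546). Mt3 was at 19.3, 24.3 and 20.2 CPM in the controls and 51.7, 53.1 and 42.3 CPM in the treated libraries and missed it too (1.19 ± 0.33, adjusted p 0.0749). DESeq2 called both Mt1 (adjusted p 0.00178) and Mt3 (0.0221), and limma-voom called Mt1 (0.00426) but not Mt3 (0.29). The whole list of 10 metallothionein and zinc genes had 2 called higher, none called lower, 6 higher in every treated library and none lower in every one. Its median was 0.50, and its summed level was 3037 to 3091 CPM in the controls and 4061 to 4846 CPM in the treated libraries. Slc30a2, a zinc exporter of secretory cells, was at 0 to 21.1 and 38.3 to 51 CPM (1.78 ± 0.47, adjusted p 0.0803). Mtf1, the zinc-sensing factor that switches metallothioneins on, had overlapping groups at 1.96 to 11.6 and 4.31 to 16.8 CPM (0.39 ± 0.71, adjusted p 0.979). The call of Mt4 held whichever library was left out, with adjusted p of at most 0.0482. The Mt2 call was lost without control 2 or treated library 2 or 3 (adjusted p 0.0894 to 0.288).

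Metallothionein promoters are known for metal response elements. A loose form of their core, TGCNCNC, was searched on both strands, with overlapping matches counted. It allows any base at N, so a match need not be such an element. The 250 bases before the RefSeq starts of the called genes Mt2 (GRCm38.p6, chr8:94172368-94172617, plus strand) and Mt4 (chr8:94136954-94137203, plus strand) are shown with the matches in capitals.
Mt2: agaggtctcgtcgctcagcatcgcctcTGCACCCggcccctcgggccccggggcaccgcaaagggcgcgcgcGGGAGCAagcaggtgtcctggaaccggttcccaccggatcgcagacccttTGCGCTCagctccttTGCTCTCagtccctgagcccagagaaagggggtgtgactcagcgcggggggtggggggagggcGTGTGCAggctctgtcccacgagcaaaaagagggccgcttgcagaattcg
Mt4: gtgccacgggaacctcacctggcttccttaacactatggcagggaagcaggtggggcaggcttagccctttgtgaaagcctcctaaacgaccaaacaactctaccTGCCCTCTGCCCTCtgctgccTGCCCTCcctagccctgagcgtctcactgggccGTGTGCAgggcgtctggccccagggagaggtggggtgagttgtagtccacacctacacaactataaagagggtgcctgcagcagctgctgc
The Mt2 window held 5 matches and the Mt4 window 4. Across 32851 RefSeq promoter windows of the same length, 44.41% held at least 1 match, 1.282% at least 4 and 0.344% at least 5. The window of Mt1 held 1 match, and bases after the RefSeq starts were not searched. These counts describe the letters before the annotated starts and were not tied to the binding of a factor.

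In the handling of the fatty acid itself few genes changed. Fabp5, a cytosolic carrier of long-chain fatty acids, rose, from 69.6, 61.9 and 72.9 CPM in the controls to 119.8, 114 and 138 CPM in the treated libraries (0.86 ± 0.22, adjusted p 0.0439). It was the 1 member called among 13 tested uptake and activation genes, of which 2 were higher and 2 lower in every treated library (median -0.11); the fatty acid transporter Cd36 was at 0. The Fabp5 call was lost without control 1, 2 or 3 or treated library 1, 2 or 3 (adjusted p 0.0553 to 0.389). Dbi, the acyl-CoA binding protein, was at 1189.7 to 1341 and 1400.3 to 1567 CPM (0.23 ± 0.12, adjusted p 0.639). Cav1, the caveolae protein, was at 18.4 to 22.5 and 6.02 to 8.65 CPM (-1.45 ± 0.62, adjusted p 0.518). Both had groups that did not overlap and did not pass the test.

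None of 35 tested sphingolipid and ceramide genes was called (4 at an unadjusted p under 0.05), 6 were higher and 2 lower in every treated library, and the median was 0.19. At the entry of ceramide synthesis, the serine palmitoyltransferase subunit Sptlc1 was at 25.8 to 34.1 and 35.7 to 57.7 CPM (0.58 ± 0.32, adjusted p 0.696). Sptlc2, its catalytic partner, was at 27.8 to 83.8 and 32.7 to 39.6 CPM (-0.66 ± 0.31, adjusted p 0.613). The small subunit Sptssa was at 173 to 187 and 217 to 254 CPM (0.36 ± 0.16, adjusted p 0.569). Ormdl1, an inhibitor of the same enzyme, was at 45.1 to 66.1 and 86.4 to 107 CPM (0.74 ± 0.24, adjusted p 0.205). The signs differed between Sptlc1 and Sptlc2, and neither passed the test. On the breakdown side, the acid ceramidase Asah1 was at 242 to 256 and 234 to 318 CPM (0.10 ± 0.16, adjusted p 0.962). The alkaline ceramidase Acer1 was at 12.5 to 19.3 and 4.31 to 7.69 CPM (-1.35 ± 0.76, adjusted p 0.699). Sgpl1, the lyase that cleaves phosphorylated sphingosine, was at 0 to 11.2 and 12 to 24.1 CPM (1.35 ± 0.61, adjusted p 0.578). The standard error was wide for a gene of low counts such as Acer1.

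Fatty acid oxidation and PPAR target genes likewise held no called member among 26 tested (4 at an unadjusted p under 0.05), with 3 higher and none lower in every treated library and a median of 0.06. Of those 3, Eci2, an enzyme of beta-oxidation, was at 29.7 to 51.6 and 74.5 to 101 CPM (0.95 ± 0.27, adjusted p 0.0749). Hadh, of the same pathway, was at 27.1 to 46.8 and 49.9 to 71.5 CPM (0.78 ± 0.30, adjusted p 0.419). Cpt1a, which admits fatty acids to mitochondria, was at 10.3 to 22.7 and 12.5 to 20.7 CPM (-0.10 ± 0.54, adjusted p 0.995), and Ppara was at 0. None of 16 tested genes for triglycerides and lipid droplets was called (1 at an unadjusted p under 0.05), and the droplet coat protein Plin2 was at 192 to 266 and 229 to 296 CPM (0.28 ± 0.16, adjusted p 0.711). None of 13 for elongation and desaturation was called either (1), and the desaturases Scd1 (-0.11 ± 0.25, adjusted p 0.981) and Scd2 (-0.34 ± 0.14, adjusted p 0.507) had overlapping groups. Of 25 tested cholesterol synthesis genes 1 rose and none fell, 6 were higher and 1 lower in every treated library, and the median was 0.17. The riser was Fdps, which makes farnesyl diphosphate, at 1101, 1158 and 1138 CPM in the controls and 1368, 1473 and 1981 CPM in the treated libraries. Its change was 0.50 ± 0.12, adjusted p 0.0214. Lamp2, a protein of the lysosomal membrane, rose from 470.5, 509 and 444 CPM to 682, 779.7 and 673 CPM (0.58 ± 0.13, adjusted p 0.00853). It was the 1 called among 34 tested lysosomal genes (median 0.11). The Fdps call was lost without control 1 or treated library 2 or 3 (adjusted p 0.0932 to 0.664). The Lamp2 call was lost without treated library 2 (adjusted p 0.286).

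Of the genes for mitochondrial proteins encoded in the nucleus, Slc25a4 and Timm10b rose. Slc25a4, the ADP/ATP carrier of the inner membrane, was at 37.4, 61.5 and 61.2 CPM in the controls and 134, 97.7 and 88 CPM in the treated libraries. The difference was 0.96 ± 0.24, adjusted p 0.0304. Timm10b, a small chaperone of inner membrane import, was at 67, 104 and 94.5 CPM in the controls and 187, 169.9 and 158 CPM in the treated libraries. This gave 0.93 ± 0.19, adjusted p 0.00325. Of 43 tested nuclear-encoded respiratory chain genes none was called (4 at an unadjusted p under 0.05). In every treated library 10 were higher and none was lower, beside 6.92% and 6.12% of all genes tested. A log2 fold change above 0 was found for 39 of the 43, and that share was not computed over all genes. The median of the 43 was 0.15, beside 0.01 over all genes tested. Their summed level was 27339.5 to 30985 CPM in the controls and 31870.3 to 32208 CPM in the treated libraries, with no overlap. Atp5d, a subunit of ATP synthase, was at 233 to 273 and 305 to 398 CPM (0.48 ± 0.15, adjusted p 0.188). The 13 mitochondrially encoded mRNAs had a median of -0.09, 1 higher and 3 lower in every treated library. Smpx and Tnni1, genes of striated muscle, rose as well. Smpx was at 0, 15.3 and 11.7 CPM in the controls and 41.8, 52.7 and 25 CPM in the treated libraries. The log2 fold change was 1.95 ± 0.46, adjusted p 0.0305. Tnni1 was at 24.5, 15.7 and 10.3 CPM in the controls and 60.7, 36.8 and 56.7 CPM in the treated libraries. Its log2 change was 1.69 ± 0.36, adjusted p 0.00382. Of the listed muscle genes, 11 of 28, desmin (Des) among them, were at 0 in all 8 libraries. Aspscr1, which tethers vesicles of the glucose transporter GLUT4, rose from 21.9, 41.9 and 31 CPM to 55.6, 81 and 82.7 CPM (1.16 ± 0.29, adjusted p 0.0264). The Slc25a4 call was lost without control 1 or treated library 1, 2 or 3 (adjusted p 0.0757 to 0.459). The Timm10b call was lost without treated library 1 (adjusted p 0.074). The Smpx call was lost without control 1 or 3 or treated library 1, 2 or 3 (adjusted p 0.0542 to 0.373). The Tnni1 call was lost without control 3 or treated library 1 or 3 (adjusted p 0.0518 to 0.0959). The Aspscr1 call was lost without control 1 or 3 or treated library 2 or 3 (adjusted p 0.0681 to 0.307).

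Other named genes that rose averaged over 100 CPM and changed by less than 1 log2 unit; they were chosen for mention after their values were seen. They included the tubulin Tuba1a (0.67 ± 0.15, adjusted p 0.0116), the microtubule regulator Stmn1 (0.61 ± 0.15, adjusted p 0.0329), Jpt1 (0.53 ± 0.14, adjusted p 0.047), the histone variant H2az1 (0.44 ± 0.11, adjusted p 0.0416) and the vesicle protein Sypl (0.54 ± 0.13, adjusted p 0.0205). Stmn1 was at 210.1, 212 and 212 CPM in the controls and 328, 309 and 329 CPM in the treated libraries, groups of very narrow spread. All 5 calls were lost when some single library was left out. The Tuba1a call was lost without control 2 or treated library 1, 2 or 3 (adjusted p 0.0556 to 0.213). The Stmn1 call was lost without control 2 or 3 or treated library 1, 2 or 3 or batch 2 library 1 or 2 (adjusted p 0.0501 to 0.215). The Jpt1 call was lost without control 1 or 2 or treated library 1, 2 or 3 or batch 2 library 1 or 2 (adjusted p 0.0539 to 0.481). The H2az1 call was lost without control 2 or 3 or treated library 1, 2 or 3 or batch 2 library 1 or 2 (adjusted p 0.0513 to 0.532). The Sypl call was lost without treated library 1, 2 or 3 (adjusted p 0.123 to 0.181). Cell cycle lists held no called member: of 34 tested S phase genes 5 were higher and none lower in every treated library (median 0.16, 1 at an unadjusted p under 0.05), and of 43 tested G2/M genes 2 were higher and 3 lower (median -0.10, 7 at such a p).

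Car1 was the 1 gene of the absorptive colonocyte list that was called lower in the reported fit. Car1 (chromosome 3, 14766216 to 14808368, minus strand), the cytosolic carbonic anhydrase of colonocytes, was at 535, 543 and 495 CPM in the controls and 259, 251 and 266 CPM in the treated libraries. Both groups were narrow and lay far apart, a change of -1.02 ± 0.14, adjusted p 6.09e-07. Its neighbour Car2 was at 2684 to 3104 and 2167 to 2356 CPM and did not pass (-0.37 ± 0.11, adjusted p 0.107). Car2 was called with DESeq2 (adjusted p 0.0154), limma-voom (0.00227) and plain library-size scaling (0.0415). Slc9a3, the sodium and proton exchanger NHE3 and a member of the same list, went the other way at 0, 1.18 and 2.25 CPM in the controls and 6.89, 9.2 and 3.36 CPM in the treated libraries and did not pass (2.25 ± 1.05, adjusted p 0.602). Of 11 tested absorptive colonocyte genes 1 fell, none rose, 3 were lower and 1 higher in every treated library, and the median was -0.31. In bulk RNA, fewer cells of a type and less RNA per cell cannot be told apart. Rnf186 (chromosome 4, 138967112 to 138968360, plus strand), a ubiquitin ligase of the colonic epithelium, was at 156, 146 and 159.7 CPM in the controls and 42.7, 63.4 and 66.3 CPM in the treated libraries. The change was -1.42 ± 0.23, adjusted p 2.08e-05. Plac8 (chromosome 5, 100553725 to 100572245, minus strand), a cysteine-rich protein of intestinal epithelium, was at 345, 348 and 269.9 CPM in the controls and 133, 156 and 212 CPM in the treated libraries. Its change was -0.94 ± 0.17, adjusted p 2.14e-04. Selenbp1, a selenium-binding protein of mature colonocytes, was at 253, 263 and 137 CPM in the controls and 112, 124 and 128 CPM in the treated libraries (-0.83 ± 0.19, adjusted p 0.0116), where control 3 lay near the treated libraries. Calml4, a calmodulin-like protein of the brush border chosen after its values were seen, was at 316, 352 and 341 CPM in the controls and 195, 256 and 206 CPM in the treated libraries. The difference was -0.62 ± 0.16, adjusted p 0.0319. Car1, Rnf186 and Plac8 kept their calls whichever library was left out. The Selenbp1 call was lost without control 1 or 2 or treated library 1, 2 or 3 (adjusted p 0.0915 to 0.184). The Calml4 call was lost without control 2 or 3 or treated library 1 or 3 (adjusted p 0.0551 to 0.327).

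Cma1, a chymase that is classically a product of mast cells, was at 1027, 1658 and 1255 CPM in the controls and 650.1, 389 and 535 CPM in the treated libraries. This gave -1.33 ± 0.18, adjusted p 0.00142. Every treated library was below every control, with a wide spread in both groups. Of the 10 listed chymases and mast cell proteases, 8 were at 0 in all 8 libraries, tryptases (Tpsab1 and Tpsb2) and carboxypeptidase Cpa3 included, as were the mast cell receptors Kit and Fcer1a. The Cma1 call was lost without control 1 or 3 or treated library 3 (adjusted p 0.063 to 0.0852).

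Ly6 genes, which encode small GPI-anchored surface proteins and lie on chromosome 15, included members that fell. Ly6c1 (chromosome 15, 75044018 to 75048830, minus strand) was at 962, 797 and 889 CPM in the controls and 518, 533 and 552 CPM in the treated libraries, a change of -0.72 ± 0.13, adjusted p 1.63e-04. Ly6g, chosen after its values were seen, was at 562, 415 and 636 CPM in the controls and 336, 349.7 and 396 CPM in the treated libraries. The log2 fold change was -0.57 ± 0.14, adjusted p 0.0286. Ly6a, also called Sca-1 and a marker of the fetal-like or revival state of intestinal stem cells, was at 1706 to 1785 and 1289.9 to 1466 CPM (-0.35 ± 0.11, adjusted p 0.196) and did not pass, although every treated library was below every control. These 3 genes are similar in sequence, and reads could be shared between them or with other Ly6 genes. Among 20 tested revival and fetal-like genes, Ly6c1 was the 1 that fell and none rose; 3 were lower and 1 higher in every treated library, and the median was -0.08. The revival gene Anxa1 was at 2809 to 3421 and 2754 to 3000.5 CPM (-0.13 ± 0.11, adjusted p 0.86). Clu was at 1.8 to 12.1 and 9.05 to 14.9 CPM (0.96 ± 0.74, adjusted p 0.838). The groups overlapped for both. None of 14 tested crypt-base stem cell genes was called (2 at an unadjusted p under 0.05, median -0.06). Lgr5 was at 1.29 to 8.23 and 2.4 to 11.3 CPM (0.46 ± 0.95, adjusted p 0.981). Ascl2 was at 33.7 to 119 and 36.2 to 107 CPM (-0.03 ± 0.64, adjusted p 1). None of 13 YAP and TEAD targets was called (2 at such a p), with a median of 0.08 in this fit and -0.11 when batch 2 was left out of it. The Ly6g call was lost without control 3 or treated library 1, 2 or 3 (adjusted p 0.0852 to 0.304).

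Of 23 tested genes that link the plasma membrane to the actin cytoskeleton, 2 fell and none rose. Msn, which encodes moesin, was at 116, 77.6 and 57.6 CPM in the controls and 19.4, 39.3 and 38 CPM in the treated libraries. Its log2 change was -1.35 ± 0.31, adjusted p 0.0116. The very large scaffold protein gene Ahnak was at 290.0, 225 and 236 CPM in the controls and 140.5, 134 and 135 CPM in the treated libraries. The change was -0.87 ± 0.17, adjusted p 0.00142. In the list as a whole 7 genes were lower in every treated library, none was higher in every one, and the median was -0.36. Rdx, which encodes the moesin relative radixin, was at 46.3 to 79.9 and 23.7 to 37.5 CPM (-0.93 ± 0.32, adjusted p 0.298). The summed level of the list was 1762 to 2047 CPM in the controls and 1461 to 1499.9 CPM in the treated libraries, without overlap. Ahnak kept its call whichever library was left out. The Msn call was lost without control 1 or treated library 1 or 3 (adjusted p 0.0757 to 0.254).

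Fgfbp1, Enpp2, Serpinb11 and Mgat4c fell as well. Fgfbp1 (chromosome 5, 43978858 to 43981779, minus strand), which releases fibroblast growth factors from the matrix, was at 215, 178 and 196 CPM in the controls and 90.5, 82.5 and 48.6 CPM in the treated libraries. Its change was -1.40 ± 0.21, adjusted p 5.96e-06. The list of EGF and FGF family ligands and receptors, with 12 tested members, also holds Fgfbp1 and Ptn, which are themselves neither ligands nor receptors of those families. On that list Fgfbp1 was the 1 called lower and Ptn the 1 called higher, and no other member was called. Enpp2 (chromosome 15, 54838901 to 54952892, minus strand), which encodes autotaxin, the enzyme that makes lysophosphatidic acid, was at 267, 313 and 289 CPM in the controls and 157, 169 and 138 CPM in the treated libraries. The difference was -0.91 ± 0.17, adjusted p 2.76e-04. Serpinb11, a clade B serpin, was at 95.4, 98.3 and 98.1 CPM in the controls and 40.1, 59.1 and 48.6 CPM in the treated libraries. This gave -0.98 ± 0.25, adjusted p 0.0329. Mgat4c, of the family that branches N-glycans, was at 42.5, 29 and 43.6 CPM in the controls and 12.5, 6.02 and 9.61 CPM in the treated libraries. The log2 fold change was -2.03 ± 0.48, adjusted p 0.0188. Of 10 tested genes of N-glycan branching, 1 fell, 3 were lower in every treated library, none was higher, and the median was -0.55. Mgat4a, of the same family, was at 19.8 to 45.1 and 9.91 to 17.7 CPM (-1.17 ± 0.44, adjusted p 0.388). Fgfbp1 and Enpp2 kept their calls whichever library was left out. The Serpinb11 call was lost without control 2 or 3 or treated library 1 or 3 (adjusted p 0.0621 to 0.296). The Mgat4c call was lost without control 1 or 3 or treated library 2 or 3 (adjusted p 0.0829 to 0.199).

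No tested member of the chaperone, unfolded protein response or integrated stress response lists rose. Hspa5, which encodes BiP, the main chaperone of the endoplasmic reticulum and the best known target of the unfolded protein response, was at 739, 579 and 616 CPM in the controls and 434, 413 and 441 CPM in the treated libraries. The change was -0.58 ± 0.13, adjusted p 0.0128. Of 27 tested chaperone and unfolded protein response genes 1 fell and none rose, 6 were lower and 1 higher in every treated library, and the median was -0.09. The 5 others that were lower throughout were Hsp90b1 (-0.27), Calr (-0.52), Canx (-0.38), Dnajb11 (-0.73) and Xbp1 (-0.59), given as log2 fold changes, none of which passed. A short stretch before the RefSeq start of Hspa5 (GRCm38.p6, chr2:34772020-34772049, plus strand) is shown because it holds, in capitals, the endoplasmic reticulum stress element (ERSE) through which the response is known to act.
Hspa5: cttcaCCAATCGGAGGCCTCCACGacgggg
This element occurred in 37 of the 32851 promoter windows of 250 bases (0.1126%), searched on both strands. Ero1a (chromosome 14, 45283087 to 45318771, minus strand), the oxidase that forms disulfide bonds in the same compartment and a gene also induced by hypoxia, was at 494, 457 and 352 CPM in the controls and 218, 239.6 and 230.3 CPM in the treated libraries. The change was -0.92 ± 0.15, adjusted p 4.55e-05. The Hspa5 call was lost without treated library 1, 2 or 3 (adjusted p 0.0852 to 0.144). That of Ero1a held whichever library was left out.

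Pfkp, a phosphofructokinase of glycolysis, was at 384, 325 and 352 CPM in the controls and 209, 253 and 219 CPM in the treated libraries. Its log2 change was -0.64 ± 0.15, adjusted p 0.0216. Ero1a and Pfkp were the 2 called among 32 tested glycolysis and hypoxia genes. In that list 7 were lower and 1 higher in every treated library, and the median was -0.06. Other known hypoxia targets did not pass. The carbonic anhydrase Car9 was at 30.2 to 63.9 and 8.62 to 25 CPM (-1.33 ± 0.40, adjusted p 0.13). Vegfa was at 36 to 54.1 and 21.5 to 26 CPM (-0.90 ± 0.37, adjusted p 0.493). Ndrg1 was at 110.2 to 130.2 and 56 to 98 CPM (-0.59 ± 0.22, adjusted p 0.401). The glycolytic enzyme Eno1 was at 960.1 to 1087 and 1168 to 1495 CPM (0.31 ± 0.12, adjusted p 0.431). The Pfkp call was lost without treated library 1 or 3 (adjusted p 0.193 to 0.254).

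The integrated stress response is the program that amino acid shortage and other stresses set off through phosphorylation of eIF2. Its gene list held 1 member that fell, none that rose, 5 lower and 2 higher in every treated library among 33 tested, and a median of -0.23. The called member was Nupr1, a stress-induced nuclear protein, at 1726, 2206 and 2342 CPM in the controls and 1408, 1606 and 1428 CPM in the treated libraries. The change was -0.50 ± 0.12, adjusted p 0.0143. Ddit3, the pro-apoptotic factor CHOP, was at 30.9 to 38.7 and 10.6 to 23.3 CPM (-0.94 ± 0.43, adjusted p 0.587). Its activator Atf4 was at 80.5 to 92.8 and 73.7 to 82.2 CPM (-0.16 ± 0.23, adjusted p 0.96). Nars, an asparaginyl-tRNA synthetase, was at 1008 to 1179 and 683 to 875 CPM and lay next to the threshold (-0.47 ± 0.12, adjusted p 0.0506). DESeq2 (adjusted p 0.0223) and limma-voom (0.0154) called Nars. Eif2s2, the beta subunit of eIF2 itself, was at 3694, 3655 and 3802 CPM in the controls and 2856, 2777 and 2628 CPM in the treated libraries. Its change was -0.43 ± 0.11, adjusted p 0.0243. It was chosen after its values were seen. The Nupr1 call was lost without control 2 or 3 or treated library 1 or 3 (adjusted p 0.0712 to 0.254). The Eif2s2 call was lost without control 2 or 3 or treated library 1, 2 or 3 or batch 2 library 1 or 2 (adjusted p 0.0513 to 0.212).

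The other 2 named genes that fell were Neat1, the long non-coding RNA of nuclear paraspeckles, and Vps13c, a lipid transfer protein. Neat1 was at 239.8, 169 and 104 CPM in the controls and 92.2, 88.1 and 88 CPM in the treated libraries. The difference was -0.91 ± 0.21, adjusted p 0.0143. Vps13c was at 33.5, 17.2 and 2.7 CPM in the controls and 0.862, 1.06 and 0.961 CPM in the treated libraries. This gave -4.09 ± 1.04, adjusted p 0.0332, with 7 counts in all over the 3 treated libraries, so the size of the fall is uncertain. In both, the controls differed among themselves by more than the treated libraries did, and control 3 was close to the treated group. The Neat1 call was lost without control 1 or treated library 1, 2 or 3 (adjusted p 0.126 to 0.329). The Vps13c call was lost without treated library 1, 2 or 3 (adjusted p 0.201 to 0.252). Vps13c did not have enough counts to be tested without control 1, without control 2 or in the 6 libraries alone, and its call was also lost with limma-voom (adjusted p 0.406) and with the replicate block (0.165). The 7 predicted genes, pseudogenes and unnamed loci were Rps23-ps1, Alms1-ps2, Gm20390 and AL731706.1, which were higher, and 2610528A11Rik, Gm8451 and Rpl31-ps9, which were lower. Rpl31-ps9 had no count in any treated library and was at 0, 10.6 and 6.75 CPM in the controls, which makes it at least 18.2-fold lower against a floor of 3 counts over the treated group. Since control 1 was also at 0, it is the 1 called gene whose groups overlap. Reads of processed ribosomal pseudogenes cannot be told apart with certainty from those of their parent genes.

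**Figure D3:**
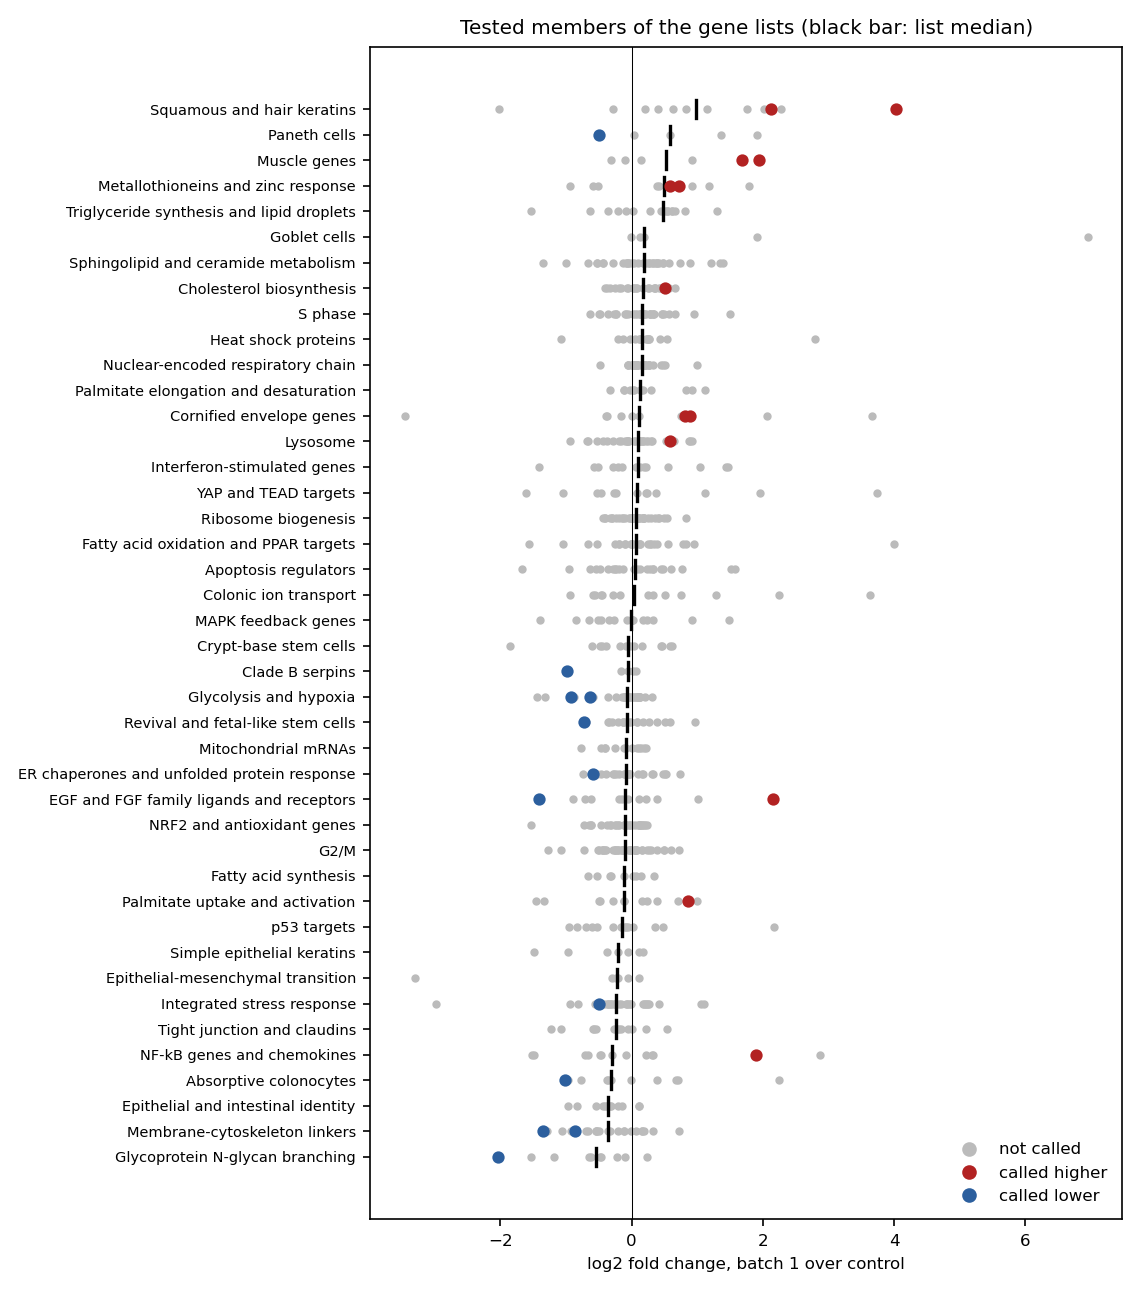
Log2 fold change of treated over control for each tested member of the gene lists with at least 5 tested members, 1 row per list ordered by median (black bar). Red and blue points are members called higher or lower; squamous and hair keratins have the highest median (0.99) and N-glycan branching the lowest (-0.55), and no list has more than 2 called members in 1 direction.

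The second palmitic acid batch shares the 3 controls with the first, so the comparisons of either batch with control are not independent of each other and their values are given side by side only. Against control, 32 of 9845 genes (0.325%) were called in batch 2. Of the 55 genes called in batch 1, 52 had the same sign in batch 2. There, 24 were called in the same direction and Rpl31-ps9 was called in the opposite one. The shared controls favour the same sign in both batches. The share with the same sign over all genes tested was not computed, so the count of 52 has no background to be judged by. Dapl1, at 643 and 652 CPM in batch 2, had a log2 fold change of 1.42 in batch 1 and 1.40 in batch 2. For Ifitm3 the values were 1.09 and 1.06, for Tff1 5.03 and 4.32, and for Sprr2a2 0.90 and 0.99. Among the genes that fell they were -1.40 and -1.54 for Fgfbp1, and -1.42 and -1.56 for Rnf186.

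In the test of the batches against each other, the controls enter only through the filter, the scaling and the shared estimate of spread. By that test 10 of 9845 genes differed (0.102%), 5 of which were also called in batch 1 against control, namely Car1, Cma1, Mt4, Rps23-ps1 and Rpl31-ps9. Car1 was at 462 and 518 CPM in batch 2, near the controls and above every batch 1 library (batch 1 minus batch 2 -0.92 ± 0.15, adjusted p 1.65e-04). Mt4 was at 932 and 733 CPM in batch 2 (0.80 ± 0.14, adjusted p 7.71e-04), and Cma1 at 1287 and 1307 CPM (-1.31 ± 0.20, adjusted p 0.0122). For Mt2 and Fabp5, batch 2 was again near the controls, at 473 and 461 CPM and 68.5 and 76.1 CPM. The difference between the batches did not pass the test for either (0.57 ± 0.15, adjusted p 0.154 and 0.78 ± 0.25, adjusted p 0.81). Against control, Fdps, Jpt1 and H2az1 had log2 fold changes of 0.50, 0.53 and 0.44 in batch 1 but 0.08, -0.001 and 0.06 in batch 2. Between the batches these genes did not pass either (adjusted p 0.81, 0.486 and 0.958). The median of the metallothionein list was 0.50 in batch 1 and 0.04 in batch 2 against control, and that of the cornified envelope list 0.12 and 0.97. Of the calls between batches, that of Car1 held whichever library was left out (adjusted p at most 0.0400). The call of Mt4 was lost without batch 1 library 3 (0.0947) or batch 2 library 2 (0.501), and the call of Cma1 without control 1 (0.248), control 3 (0.336) or batch 1 library 3 (0.406).

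**Figure D4:**
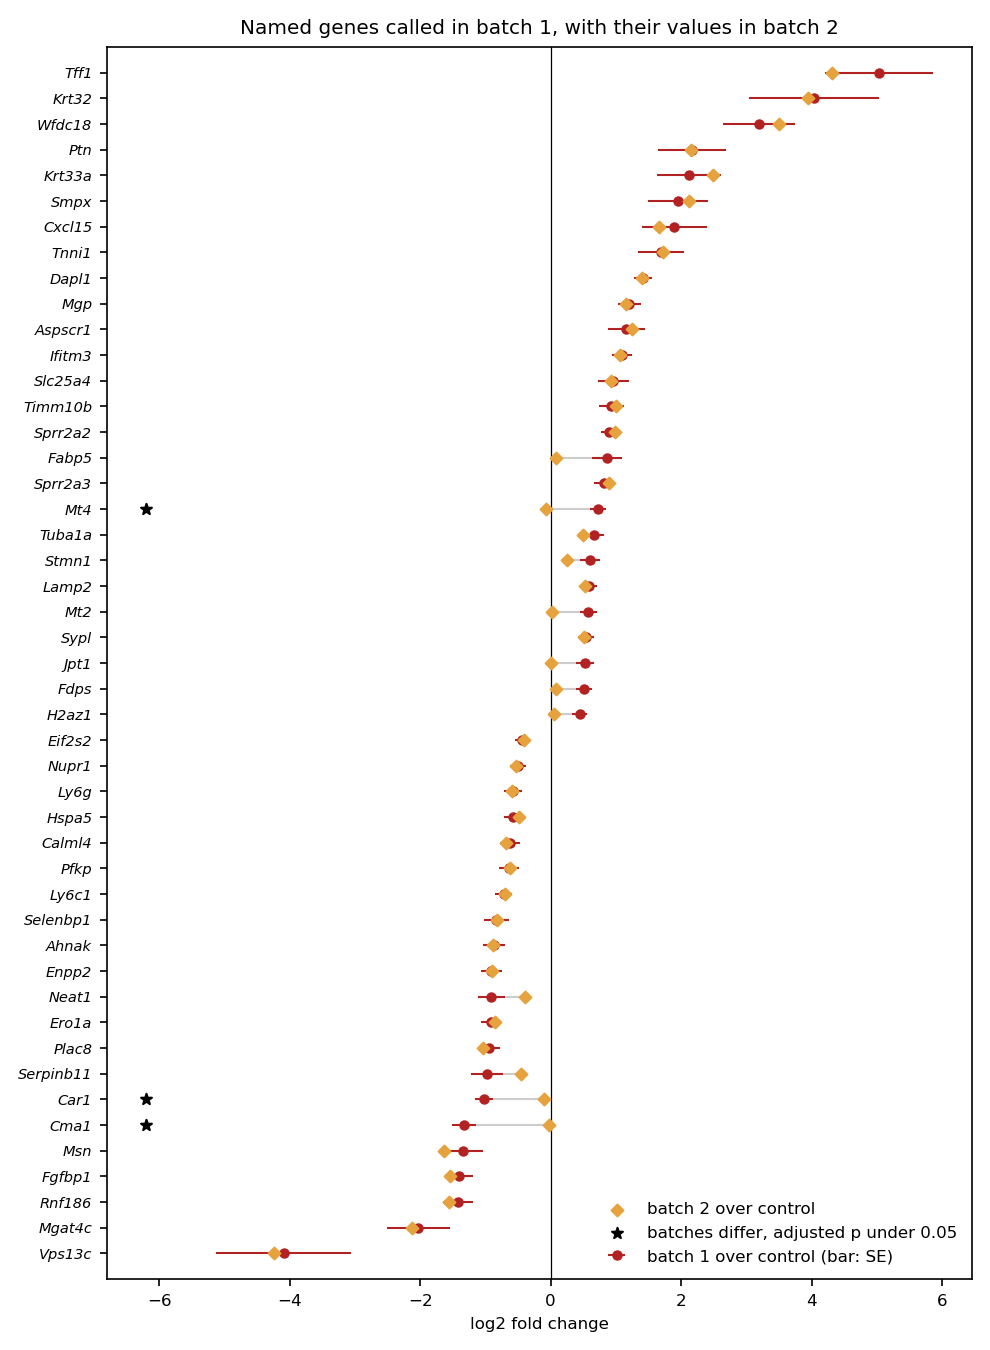
Log2 fold change against control of 47 named genes called in batch 1, with circles for batch 1 (bars are the SE) and diamonds for batch 2; stars mark genes for which the batches differed at an adjusted p under 0.05. For most genes the symbols lie close together; Car1, Cma1 and Mt4 carry stars, with their diamonds near 0.

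The 12 control libraries of the carmofur experiment, also labelled AKP, give the range of these genes in other control organoids when all are scaled together. Those 12 libraries were used for levels only. Of the 31 genes that rose, 15 had all 3 treated libraries above all 12 of those controls, and of the 24 that fell, 6 had all 3 treated libraries below them. The share of all tested genes that lay outside that range was not computed, so these counts have no background to be judged by. Tff1 ranged from 0 to 13.5 CPM with a median of 2.31 there, beside 14.9 to 46.8 CPM in the treated libraries on that scale. Ifitm3 ranged from 90.6 to 220.3 CPM with a median of 161, beside 392 to 451 CPM. The 6 genes below were Hspa5, Pfkp, Ly6c1, Enpp2, Ero1a and Rnf186. For 9 called genes the palmitic acid controls themselves lay outside the range of the carmofur controls. Those of Sprr2a2 and Mt4, which are among the 15, were already above all 12, as were those of Ly6c1. For Ly6g, Serpinb11 and Gm8451 the controls lay above all 12 and the treated libraries overlapped their range. For Rps23-ps1, Gm20390 and AL731706.1 the controls lay below all 12 and the treated libraries overlapped their range. Ero1a ranged from 471 to 836 CPM with a median of 598, beside 225 to 252 CPM. Other called genes overlapped the range of the carmofur controls. Car1 ranged from 165 to 667 CPM there with a median of 405, beside 263 to 273 CPM in the treated libraries. Cma1 ranged from 513 to 1469.5 CPM with a median of 1119, beside 409 to 672 CPM.

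How firmly single genes were called depended on the libraries. Leaving out 1 library at a time moved the number of called genes between 21 (without treated library 3) and 72 (without batch 2 library 1), beside 55 with all; it was 31 without treated library 1 and 33 without treated library 2. In these fits 17 of the 55 genes were called each time, and 14 were called under every alternative that was run: Dapl1, Mgp, Ifitm3, Sprr2a3, Mt4 and Rps23-ps1 among the genes that rose, and Ly6c1, Ahnak, Enpp2, Ero1a, Plac8, Car1, Fgfbp1 and Rnf186 among those that fell. The additional 3 of the 17 were Tff1, Wfdc18 and Rpl31-ps9, each of which lost its call with limma-voom (Rpl31-ps9 also with DESeq2). With limma-voom 16 of the 55 calls were lost, among them also Krt32, Krt33a, Smpx, Aspscr1, Slc25a4, Stmn1 and Ly6g. Plain library-size scaling ended the calls of Cxcl15, Fabp5, Stmn1, Jpt1 and H2az1 (adjusted p 0.0545 to 0.0747). No called gene changed direction under any alternative.

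**Figure D5:**
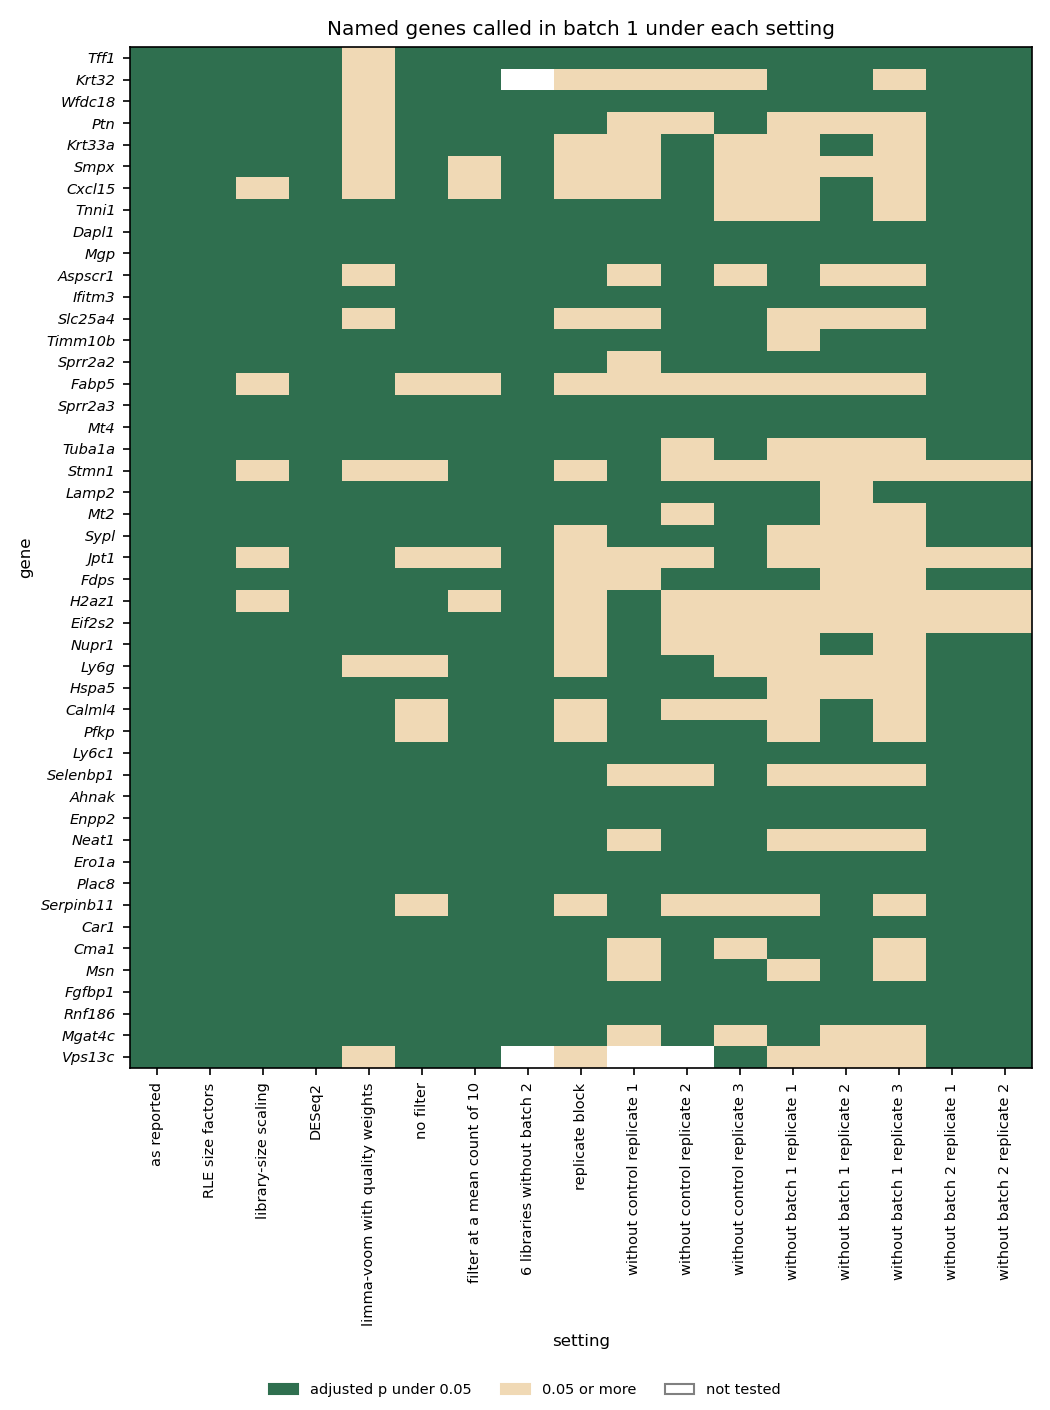
The same 47 named genes called in batch 1 (rows) under the reported fit and each alternative (columns), dark where the adjusted p is under 0.05, light where it is 0.05 or more, and white where the gene was not tested. The columns that leave out a batch 1 library have the most light cells; 13 rows are dark in every column in which the gene was tested.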

How the data were processed

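Polyadenylated RNA was prepared with a directional kit, per the labels' protocols. The submitters' processing notes name Salmon 1.3.0 and the genome build mm10, and the authors deposited 1 table of estimated counts, which are whole numbers in the file. Their annotation is not given in the sources used here. No value column of the table lay outside the listed samples (0 such columns). Genes without a symbol, 1243 of 54354 and 0.0243% of the counts, were kept under their identifiers. Coordinates come from GENCODE M21 (GRCm38, the build of mm10), which held 51485 of the identifiers, and promoter sequences from RefSeq (GRCm38.p6).

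Counts of the 3 control, 3 batch 1 and 2 batch 2 libraries were filtered with filterByExpr, scaled by TMM and fitted together with edgeR 4.0.16 in R 4.3.3 (robust quasi-likelihood F test). The contrast was batch 1 minus control, and p-values were adjusted by Benjamini-Hochberg over all 9845 genes tested, with a threshold of 0.05. Batch 2 entered the filter, the scaling and the estimate of spread. The fit without batch 2 is an alternative. The script was tested on simulated data. Replicates differed by more than sampling noise, with a chi-square per degree of freedom of at least 7.40 within groups. Same-numbered libraries did not deviate together (correlations of -0.02 to 0.02), so the numbers were not taken as pairs. Other alternatives were RLE size factors, plain library-size scaling, DESeq2 1.42.0, limma 3.58.1 (voom with quality weights), other filters, a replicate block, and each library left out.

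The groups and the 50 gene lists were chosen with earlier results of these data known. Genes are named if they are among the 15 largest rises or falls called with a mean of at least 5 CPM (predicted genes and pseudogenes excluded), among the 4 lowest p-values of a described list, on a fixed list of genes of interest, or called both against control and between batches. Other genes named (Ifitm1, Ifitm2, Slc30a2, Mtf1, Hsp90b1, Canx, Vegfa, Eno1, the pseudogenes and unnamed loci called only against control, and those marked in the text) were chosen after their values were seen. The carmofur libraries were not tested. A few genes that the rule would name are not reported here.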

Additional observations from a re-analysis of the deposited data

Results flagged for a closer look

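For 10 genes the palmitic acid batches differed from each other at an adjusted p under 0.05, while both are set against the same controls. Values are log2 fold changes of batch 1 minus batch 2 with their SE, and levels are CPM.

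Car1, the carbonic anhydrase of colonocytes, was lower in batch 1 (-0.92 ± 0.15, adjusted p 1.65e-04), with 259, 251 and 266 in batch 1, 462 and 518 in batch 2 and 535, 543 and 495 in the controls. Cma1, the chymase, was lower in batch 1 (-1.31 ± 0.20, adjusted p 0.0122), with 650.1, 389 and 535 against 1287 and 1307. Mt4 was higher in batch 1 (0.80 ± 0.14, adjusted p 7.71e-04), with 1258, 1369 and 1732 against 932 and 733. The ribosomal pseudogene Rps23-ps1 was higher in batch 1 (0.79 ± 0.17, adjusted p 0.0184), with 725, 624 and 1005 against 447 and 459.

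The other 6 genes had values at or near 0 in at least 1 group, so that their fitted fold changes depend on the prior count and are no measure of size. Ang4, an antimicrobial ribonuclease of Paneth and goblet cells, was at 12.5, 11.3 and 14.4 in batch 1, 5.16, 2.74 and 2.7 in the controls and 0 and 0 in batch 2 (7.92 ± 1.68, adjusted p 0.0126). Gja1, the gap junction protein connexin 43, was at 10.8, 17.7 and 7.69 in batch 1, 7.73, 3.53 and 18.4 in the controls and 0 and 0.416 in batch 2 (5.76 ± 1.27, adjusted p 0.0202). Ceacam2, an adhesion molecule, was at 0, 0 and 0 in batch 1, 0, 1.96 and 3.6 in the controls and 17.9 and 15 in batch 2 (-8.28 ± 1.61, adjusted p 0.0035). Lce6a, of the late cornified envelope family, was at 0, 0 and 0 in batch 1, 0, 0 and 1.35 in the controls and 17.1 and 17.9 in batch 2 (-8.37 ± 1.64, adjusted p 0.00383). The predicted gene Gm11571 was at 0, 0.354 and 0 in batch 1, 0, 2.35 and 0.9 in the controls and 23.3 and 18.3 in batch 2 (-6.79 ± 1.28, adjusted p 0.00229). The pseudogene Rpl31-ps9 was at 0, 0 and 0 in batch 1, 0, 10.6 and 6.75 in the controls and 58.8 and 112 in batch 2 (-10.65 ± 0.96, adjusted p 3.61e-10). Of the 10, Car1 and Rpl31-ps9 kept their call whichever library was left out; the others lost it without at least 1 library.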

How the results depend on the processing

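Against control, 55 genes were called. The number was within 1.5 times of that under the other scalings (63 with RLE, 53 with plain library size), DESeq2 (80), limma-voom (53), no filter (58 of 20153 tested), a filter at a mean count of 10 (52 of 8500) and the fit of the 6 libraries alone (77 of 8481, 52 of them shared with the 55). Leaving out 1 library gave 21 to 72. The number was 31, 33 and 21 without treated library 1, 2 and 3, and 45, 57 and 64 without control 1, 2 and 3. The cause of the difference was not tested. Of the 55 genes, RLE kept 55, DESeq2 54, plain library size 50, no filter 48 and limma-voom 39. The replicate block, which the labels do not support as a pairing, gave 42 calls, 35 of them shared. Between the batches 10 genes were called, 19 without the filter (the cause was not tested), 8 with the replicate block, and 2 to 14 with 1 library left out. No called gene, against control or between the batches, changed direction. Calls were 31 higher and 24 lower, but 26 and 27 with plain library size, 25 and 28 with limma-voom, and 22 and 23 without control 1. Of 170 named genes that were not called, 12 were called under some alternative, among them Mt1, Mt3, Nars, Car2, Car9, Ly6a, Sprr2b and Lgals4. List medians kept within the spread of the treated libraries in 653 of 752 values and took another sign in 38. Low depth limits the low genes: control 1 held 762888 counts, and how well changes of genes near 3 counts per library can be detected was not tested.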
